A study of Mus musculus with 100 samples.

Results

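The genes that pattern the midbrain-hindbrain boundary were followed through RNA sequencing of mouse embryos and stem cell cultures. They are 8 genes chosen by name: the homeobox genes En1 and En2, the paired box genes Pax2, Pax5 and Pax8, the homeobox gene Gbx2, and the genes of the secreted signals Fgf8 and Wnt1. They are 8 of 23109 gene-level entries in the tables of 37 libraries, and all 8 were found there. The measured value used in choosing them is the read total over the 37 libraries, which picked the transcript that stands for each gene. It decided only Fgf8, which is listed as 4 transcripts. NM_010205 was used for it, with 16919 reads against 15654 to 16413 for the others. The other 7 genes have a single transcript each, from NM_008782 (Pax5) with 1842 reads to NM_011037 (Pax2) with 32181. Because the list was proposed with earlier results of these data in view, counts of its members are set beside the share of all tested genes called in the same comparison, and the list as a whole was not tested.

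The boundary between midbrain and hindbrain is a signalling centre, the isthmic organizer. It forms where the Otx2 territory of forebrain and midbrain meets the Gbx2 territory of the hindbrain. Pax2 is an early marker of the boundary, WNT1 made on the midbrain side maintains En1 expression, and FGF8 made on the hindbrain side patterns both neighbouring brain regions. En1, En2, Pax5 and Pax8 come on around the same border and help to maintain it. Each gene is also used elsewhere: Pax2 and Pax8 in kidney and ear, Pax8 in thyroid, Pax5 in B cells, Fgf8 in primitive streak and limb ridge, Wnt1 in roof plate and neural crest precursors, En1 in limb ectoderm, somites and spinal cord, and Gbx2 in naive stem cells.

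The study concerns MLL3 and MLL4 (Kmt2c and Kmt2d), related enzymes that methylate histone H3 at lysine 4, and alleles labelled KI, which the labels do not spell out. KI embryos were Mll3flox/KI;Mll4flox/KI;Sox2-Cre, and control embryos Mll3flox/KI;Mll4flox/+;Sox2-Cre, with 3 whole embryos of each at E8.5 and at E9.5. All 12 embryos share the Mll3 genotype, 1 floxed Mll4 allele and Sox2-Cre, and what sets the genotypes apart is whether the other Mll4 allele was KI or unmodified. Sox2-Cre is a transgene whose recombinase is active in the epiblast and so in the embryo proper. Cultured cells were Mll3-/-;Mll4flox/flox (flox, the reference) or Mll3-/-;Mll4KI/KI (KI, clones 27 and 48), so all of them carry the Mll3 null genotype. They were sampled as embryonic stem cells (ESCs) kept in 2i with LIF, as embryoid bodies (free-floating differentiating aggregates) at days 4 and 10, and as neural cultures, which received 5 µM retinoic acid from day 4 and were labelled progenitors at day 8 and neurons at day 16. Other cultures were trophectoderm at day 6, driven by a doxycycline-inducible CDX2 transgene, and extraembryonic endoderm at day 5 of 0.1 µM retinoic acid and activin A. ESC and embryoid body groups hold 1 flox and 2 KI libraries per stage, and the other culture groups 2 libraries each. The labels do not say whether flox replicates came from separate cultures, so p-values measure the spread between these libraries only, and KI against flox also compares clones.

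Gene-level totals ran from 18.9 to 59.9 M reads, and a count of 0 allows up to 3 reads, equal to 0.05 to 0.159 CPM (reads divided by the gene-level total in M). In the 20 libraries labelled total RNA (embryos, trophectoderm, endoderm), 64.3% to 69.0% of counts between 1 and 20 were even, against 40.7% to 43.6% in the 17 labelled poly(A) RNA. Single reads there may not be independent fragments, and intervals cover counting error only. Kmt2c (27.6 to 99.4 CPM) and Kmt2d (149 to 334 CPM) were read in all 37 libraries. These values come per transcript and cannot show a deleted exon or a changed codon, so they do not check the genotypes. Labelled cell types carried their markers: Pou5f1 at 1392 to 1478 CPM in ESCs, Nes at 526 to 576 CPM at neural day 8, Tubb3 at 754 to 1557 CPM at neural day 16 and Gata6 at 85.6 to 110 CPM in endoderm. Other endoderm markers varied widely between the 4 endoderm cultures, Gata4 from 15.5 to 183 CPM and Sox17 from 11.3 to 82.4 CPM. In ESCs they read 2.96 to 4.37 and 0.370 to 0.934 CPM. In the 4 trophectoderm cultures Cdx2 read 27.1 to 107 CPM, but a CDX2 transgene drives them, so it does not check the label. Of other trophectoderm genes, Eomes read 17.7 to 33.4 CPM there against 12.4 to 17.0 CPM in ESCs, and Elf5 ranged from 0.799 CPM (22 reads) to 19.0 CPM and was at 0 in ESCs.

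Promoter sequences were available for 6 of the 8 genes from RefSeq (GRCm38.p6, mouse). Shown are the 250 bases before the annotated start of En1 and Wnt1, which were both lower in KI embryos at E8.5, of Pax8, which was higher in KI at E9.5 and in neural cultures, and of Gbx2, which was called in no genotype comparison of embryos or neural cultures. Each is read 5′ to 3′ on the strand of the gene, and capitals mark CpG dinucleotides, the sites where DNA methylation occurs. The windows are chr1:120602237-120602486 on the plus strand for En1, chr15:98789607-98789856 on the plus strand for Wnt1, chr2:24475600-24475849 on the minus strand for Pax8 and chr1:89931177-89931426 on the minus strand for Gbx2.
En1: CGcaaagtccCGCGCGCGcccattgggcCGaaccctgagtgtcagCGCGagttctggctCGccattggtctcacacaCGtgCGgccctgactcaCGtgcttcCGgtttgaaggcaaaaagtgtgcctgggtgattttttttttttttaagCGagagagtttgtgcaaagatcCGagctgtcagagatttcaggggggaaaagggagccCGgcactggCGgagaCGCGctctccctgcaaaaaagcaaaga
Wnt1: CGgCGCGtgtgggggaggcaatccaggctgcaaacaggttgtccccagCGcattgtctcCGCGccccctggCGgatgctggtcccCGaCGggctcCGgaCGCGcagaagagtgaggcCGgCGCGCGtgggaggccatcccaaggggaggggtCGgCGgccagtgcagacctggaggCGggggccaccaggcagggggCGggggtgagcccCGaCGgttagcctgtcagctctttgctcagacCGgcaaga
Pax8: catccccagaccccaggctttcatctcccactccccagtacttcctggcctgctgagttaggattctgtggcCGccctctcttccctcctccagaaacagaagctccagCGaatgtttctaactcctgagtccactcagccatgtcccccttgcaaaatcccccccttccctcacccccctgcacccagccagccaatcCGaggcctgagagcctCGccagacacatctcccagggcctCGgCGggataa
Gbx2: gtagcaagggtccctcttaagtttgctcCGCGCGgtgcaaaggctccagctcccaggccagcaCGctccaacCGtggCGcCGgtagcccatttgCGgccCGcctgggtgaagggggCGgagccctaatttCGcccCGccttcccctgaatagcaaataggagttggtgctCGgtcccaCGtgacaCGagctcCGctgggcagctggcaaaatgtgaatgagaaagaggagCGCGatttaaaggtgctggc
Wnt1 has 23 CpGs in its window, En1 19, Gbx2 18 and Pax8 6, where the median of 32851 mouse promoters cut the same way is 6. Pax5 has 19, and the 3 annotated starts of Pax2 have 5, 20 and 25. GC content runs from 56.0% in En1 to 71.6% in Wnt1 among the 4 shown, against a median of 52.4%. None of the 8 windows of the 6 genes holds, on either strand, the LEF/TCF core CTTTGA (in 13.8% of the 32851 promoters), the homeodomain core TAATTA (4.84%) or the nuclear receptor half-site AGGTCA (14.0%).

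Levels per transcript length (the deposited RPKM, reads per kilobase and M reads) set the genes in order within a group. In E8.5 control embryos Fgf8 was highest at 16.6 ± 2.15 RPKM (SD, n = 3), next to Gbx2 at 13.4 ± 1.59. En1 followed at 8.15 ± 1.63 and Wnt1 at 6.12 ± 0.933, then En2 at 4.23 ± 0.279. Pax2 (3.39 ± 0.295), Pax8 (3.23 ± 0.253) and Pax5 (2.45 ± 0.903) came last. In that order the SD ranges overlapped between Fgf8 and Gbx2, between En1 and Wnt1, and among the 3 Pax genes. At neural day 8 in flox cells Gbx2 (19.6 ± 0.84 RPKM, n = 2) and Wnt1 (18.2 ± 0.274) led, whereas Fgf8 stood at 0.0664 ± 0.0409. Embryoid bodies at day 4 were dominated by Fgf8, at 65.1 RPKM in the flox library and 78.6 ± 7.30 in KI, with Gbx2 next at 4.97 in flox.

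**Figure D1:**
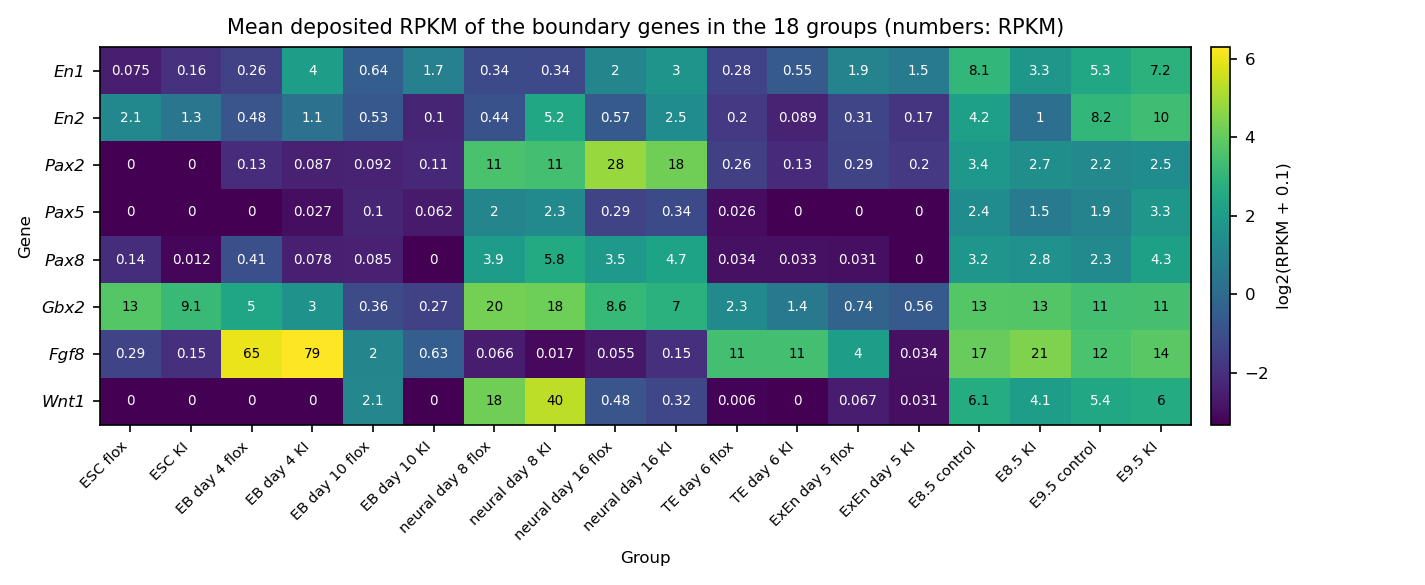
Mean deposited RPKM of each boundary gene (rows) in the 18 groups (columns). Colour shows log2(RPKM + 0.1) and the printed number the mean RPKM of the group. All 8 genes had reads in every embryo group, whereas Fgf8 peaked in day 4 embryoid bodies, Pax2 in day 16 neural cultures and Wnt1 in day 8 neural cultures.

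From here on levels are CPM, which compare 1 gene between samples. The groups of the 37 libraries ranked differently for each gene. En1, with more than 3 reads in all 37, was highest in E8.5 control embryos (27.01 ± 5.28 CPM, SD, n = 3), ahead of E9.5 KI (23.7 ± 1.42), which did not differ from it beyond the spread. En1 was lowest in the ESC flox library (0.264 CPM). En2, also read in all 37, was highest in E9.5 KI embryos (45.9 ± 3.71) and E9.5 controls (37.2 ± 1.27), and next in day 8 KI neural cultures (28.3 ± 1.20, n = 2). Pax2 peaked at neural day 16 (113 ± 8.17 in flox and 78.5 ± 5.31 in KI) and had no reads in any of the 3 ESC libraries. Pax8 was highest at neural day 8 in KI (22.5 ± 4.27) and had 0 to 9 reads per library in ESCs, day 10 embryoid bodies, trophectoderm and endoderm. Pax5 was the scarcest of the 8, with a highest value of 5.88 CPM, more than 3 reads in 21 libraries and none in 12. Gbx2 was above 3 reads in all 37, with its top at neural day 8 (64.4 ± 2.49 in flox, 58.6 ± 3.52 in KI) and the ESC flox library next at 39.0 CPM. Wnt1 ran from 160 CPM in a day 8 KI neural library to 0 reads in 12 libraries, among them all ESC and day 4 embryoid body libraries.

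In E8.5 embryos En2, En1 and Wnt1 were lower in KI than in control, and no member was called higher. Called means an adjusted p under 0.05 by edgeR over all genes tested. The 3 called members of 8 tested compare with 5.46% of 15436 genes called at all and 1.83% called lower. The median log2 fold change was -0.47 over the members and -0.01 over all genes. RNA came from whole embryos, in which fewer cells of a type and less RNA per cell cannot be told apart.

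En2, an engrailed homeobox gene of midbrain and cerebellum, read 3.49, 3.18 and 7.56 CPM in the 3 KI embryos and 18.9, 20.9 and 18.5 CPM in the controls. Every KI embryo was below every control, and the third KI embryo stood above the other KI embryos. The mean was 4.09-fold lower in KI (log2 fold change -2.03, SE 0.23, edgeR adjusted p = 0.000322). En1, its paralog and the earlier of the pair to be expressed, read 9.06, 11.9 and 11.3 CPM in KI and 33.1, 24.0 and 23.9 CPM in controls. These groups did not overlap either, and the first control was the highest of all embryos. En1 was 2.51-fold lower in KI (log2 fold change -1.32, SE 0.14, adjusted p = 1.26e-05).

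Wnt1, the midbrain-side signal, read 13.0, 13.8 and 10.9 CPM in KI and 19.4, 21.4 and 15.8 CPM in controls. The 2 groups were separate by a narrow margin, and Wnt1 was 1.50-fold lower in KI (log2 fold change -0.58, SE 0.14, adjusted p = 0.0153). Without control replicate 2 its adjusted p was 0.0709 (log2 fold change -0.48), and without KI replicate 3 it was 0.0896 (-0.49). E8.5 embryos whose titles share a number deviated together. In each of the 3 such pairs En1, En2 and Wnt1 were lower in the KI embryo, which already follows from groups that do not overlap.

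The paired box genes leaned the same way without passing the test. Pax5 read 2.70, 2.05 and 2.05 CPM in KI and 5.43, 3.28 and 2.81 CPM in controls (log2 fold change -0.75, SE 0.29, adjusted p = 0.148). Pax2, at 11.8, 9.95 and 9.56 CPM in KI and 13.7, 14.2 and 12.1 CPM in controls, gave -0.35 (SE 0.16, adjusted p = 0.208). Pax8 gave -0.23 (SE 0.15, adjusted p = 0.439). All 3 had separate groups with KI lower, Pax8 by the narrowest margin (at most 9.907 CPM in KI, at least 9.909 CPM in controls), so 6 of the 8 genes did. Of all 15436 genes tested, 12.6% had separate groups with KI lower, and 1.83% were called lower.

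Gbx2, which marks the hindbrain side, did not follow. It read 37.9, 36.7 and 33.2 CPM in KI and 40.3, 38.4 and 32.1 CPM in controls, so the groups overlapped (log2 fold change -0.04, SE 0.12, adjusted p = 0.918). Fgf8, the organizer's secreted signal, was the only member with a higher mean in KI, at 31.1, 38.5 and 29.1 CPM against 29.6, 24.3 and 23.7 CPM. Its groups overlapped as well (log2 fold change 0.35, SE 0.14, adjusted p = 0.154). Within each pair that shares a title number Fgf8 was higher in the KI embryo, but no alternative fit called it.

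**Figure D2:**
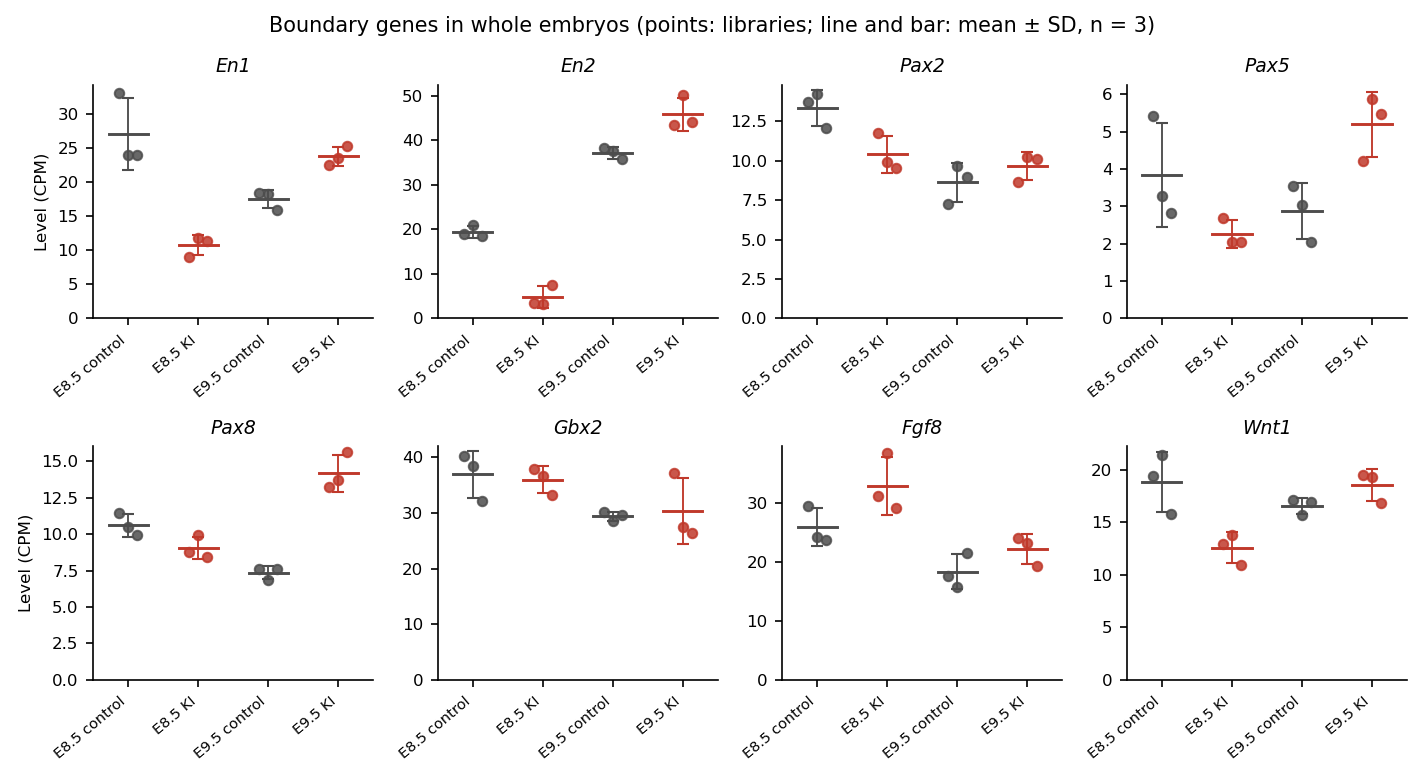
Levels (CPM) of the 8 boundary genes in whole embryos, with 1 panel per gene and control groups in grey, KI in red. Points are embryos, lines and bars the mean ± SD (n = 3). En1 and En2 are lowest in the E8.5 KI group, and the Gbx2 groups overlap at both stages.

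The genes around the members were taken from lists written with earlier results known. Among 15 measured partners of the boundary network, 2 fell in E8.5 KI embryos and none passed in the other direction, with a median log2 fold change of -0.19. They were Otx2, which defines the midbrain side (-0.69, SE 0.13, adjusted p = 0.00386), and its relative Otx1 (-0.50, SE 0.14, adjusted p = 0.0399). Of these 15, 8 had an unadjusted p under 0.05. Of 5 other WNT ligands 2 fell, Wnt3a (-1.17, SE 0.20) and Wnt7b (-0.95, SE 0.16). Of 10 WNT response genes 3 fell, led by Notum (-1.08, SE 0.21), which encodes an enzyme that inactivates WNT proteins. In the FGF pathway 1 of 7 ligands and receptors fell (Flrt3, -0.39) and 1 of 10 response genes rose, the inhibitor Spry2 (0.35, SE 0.09).

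Markers of neighbouring and other tissues moved at E8.5 too. Of 8 neural progenitor markers 2 fell (Pou3f2 and Nes, -1.07 and -0.46), and their summed level was 422 to 462 CPM in KI against 521 to 551 CPM in controls, with none at 0. Of 8 neural crest and roof plate markers 3 rose, led by Snai2 (1.24, SE 0.16), at 342 to 363 CPM summed against 281 to 290 CPM. Of 10 forebrain markers 1 fell (Nkx2-1, -1.76), and of 11 hindbrain markers none was called by edgeR (2 at an unadjusted p under 0.05). Their summed levels overlapped between genotypes, at 65.9 to 87.5 against 70.2 to 77.8 CPM and 377 to 412 against 361 to 408 CPM. Of 8 ear and eye markers 2 fell, Eya1 (-0.59) among them, and none rose, while the list's median log2 fold change had the opposite sign (0.34, beside -0.01 over all genes). Of 10 neuron markers 2 fell (Elavl4 and, most, Map2, -1.09), with summed levels of 62.3 to 77.6 against 67.7 to 77.6 CPM. Of 6 naive pluripotency markers 1 rose (Tbx3, 0.66). Of 9 kidney markers none was called by edgeR (2 at an unadjusted p under 0.05), at 126 to 135 CPM summed in KI against 115 to 123. Limb and branchial arch markers, of which 1 in 7 rose (Tbx5, 0.59), summed to 110 to 123 CPM in KI and 51.1 to 90.0 CPM in controls, and 1 of 7 streak and presomitic markers fell (Dll1, -0.42). The part of these tissues in the members' differences was not tested.

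At E9.5 Pax8, Pax5 and En1 were higher in KI embryos and no member was called lower. Of these only En1 had been called, lower, at E8.5. That is 3 of 8 tested, beside 29.5% of 15436 genes called at all and 14.6% called higher. The share of members is close to that of all genes called at all and above that of genes called higher. The median log2 fold change was 0.29 over the members and 0.01 over all genes.

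Pax8 read 13.2, 13.7 and 15.6 CPM in the KI embryos and 7.62, 6.83 and 7.61 CPM in the controls. The groups were far apart, with KI 1.93-fold higher (log2 fold change 0.94, SE 0.15, adjusted p = 9.87e-05). Pax5 read 4.22, 5.88 and 5.48 CPM in KI and 3.53, 3.04 and 2.06 CPM in controls, again without overlap (1.81-fold higher, log2 fold change 0.84, SE 0.28, adjusted p = 0.0300). The call for Pax5 rests on single embryos. Its adjusted p was 0.0660 without control replicate 2, 0.118 without control replicate 3, 0.111 without KI replicate 2 and 0.0779 without KI replicate 3. Reads of Pax8, Pax5 and Pax2 cannot be told apart from those of genes that overlap them in RefSeq, among them the long noncoding RNA genes Gm13415 at Pax8 and Gm12462 at Pax5, since the use of strand is not given.

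En1 read 22.5, 23.5 and 25.3 CPM in KI and 18.3, 18.3 and 15.9 CPM in controls. All KI embryos were above all controls (1.36-fold, log2 fold change 0.43, SE 0.13, adjusted p = 0.0200), but the adjusted p was 0.0700 without KI replicate 3 and 0.0720 without control replicate 3. En2 was separate as well, at 43.4, 50.2 and 44.1 CPM against 38.2, 37.6 and 35.8 CPM, without passing the test (log2 fold change 0.30, SE 0.20, adjusted p = 0.291). A fit of the E9.5 embryos alone gave En2 an adjusted p of 0.0218. Groups did not overlap, with KI higher, for these 4 members, beside 22.6% of all genes tested with such groups and the 14.6% called higher.

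Wnt1 (0.16, SE 0.13, adjusted p = 0.397), Pax2 (0.16, SE 0.16, adjusted p = 0.468) and Gbx2 (0.04, SE 0.12, adjusted p = 0.822) overlapped between genotypes. So did Fgf8, at 24.0, 23.2 and 19.3 CPM in KI and 17.6, 15.8 and 21.6 CPM in controls (0.28, SE 0.14, adjusted p = 0.152). Without control replicate 3, the highest of its group, Fgf8 had an adjusted p of 0.0465.

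The change of the genotype effect between the stages was tested as an interaction, the E9.5 effect minus the E8.5 effect. It was positive and called for 5 of 8 members, beside 6.63% of genes called and 3.39% called in that direction. En2 gave 2.33 (SE 0.31, adjusted p = 0.000892), En1 1.76 (SE 0.19, adjusted p = 2.24e-05) and Pax8 1.17 (SE 0.21, adjusted p = 0.00208). Pax5 gave 1.59 (SE 0.41, adjusted p = 0.0224) and Wnt1 0.74 (SE 0.19, adjusted p = 0.0235). Pax2 (0.52, SE 0.22, adjusted p = 0.174), Gbx2 (0.08, adjusted p = 0.845) and Fgf8 (-0.08, adjusted p = 0.871) were not called. Pax5 missed the threshold without E8.5 control replicate 1 (adjusted p = 0.0696), E8.5 KI replicates 2 (0.0506) or 3 (0.0509), or E9.5 KI replicate 2 (0.0660). Wnt1 missed it without E8.5 control replicate 2 (0.0679), E8.5 KI replicate 3 (0.0638), E9.5 control replicate 2 (0.0623) or E9.5 KI replicate 2 (0.0638).

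The courses of the 2 genotypes show where that difference lies. From E8.5 to E9.5 in controls, En1 fell (log2 fold change -0.68, SE 0.13), as did Pax2 (-0.69), Pax8 (-0.59), Fgf8 (-0.56) and Gbx2 (-0.39), while En2 rose (0.87, SE 0.21). These are 6 called of 8, beside 24.2% of genes. Gbx2 was no longer called there without E8.5 control replicate 1 (adjusted p = 0.0777), E8.5 control replicate 2 (0.0666) or E9.5 control replicate 2 (0.0776). In KI embryos 6 were called too, beside 32.5% of genes, but 5 of them rose: En2 (3.21, SE 0.23), Pax5 (1.13), En1 (1.07, SE 0.14), Pax8 (0.58) and Wnt1 (0.49). Only Fgf8 fell (-0.64, SE 0.14). Wnt1 lost its call without E8.5 KI replicate 3 (adjusted p = 0.0627), whereas Gbx2 (-0.31, adjusted p = 0.0568) gained one without that embryo (0.0381) or without E9.5 KI replicate 1 (0.00213), in DESeq2 (0.0457) and with no filter on low counts (0.0474). En2 thus went from 19.4 ± 1.31 to 37.2 ± 1.27 CPM in controls and from 4.75 ± 2.45 to 45.9 ± 3.71 CPM in KI (SD, n = 3 each).

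At E9.5 the surrounding genes split. Of the 15 boundary partners 3 rose and 4 fell (median -0.18), among them Lmx1b, a regulator of Fgf8 and Wnt1 at the boundary (-1.04, SE 0.21), Otx1 (-0.61) and Zic1 (-0.69). Tfap2b rose (0.52), and Otx2 gave -0.34 (adjusted p = 0.0528). Of 10 FGF response genes 5 rose, led by Spry2 (0.96, SE 0.09) and Spry1 (0.57), while 1 of 7 FGF ligands and receptors rose and 1 fell (Flrt3, 0.60, and Fgfr3, -0.74). Of the 5 other WNT ligands 3 fell, Wnt7b (-1.32), Wnt3a (-0.96) and Wnt8b (-0.78). Of 10 WNT response genes 1 rose (Rnf43, 0.71) and 3 fell, led by Apcdd1 (-0.89).

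Among tissue markers at E9.5, the medians of the neuron, streak and neural progenitor lists were the farthest from 0 (-1.67, -1.002 and -0.74 on the log2 scale). Of 10 neuron markers 8 fell, led by Dcx (-2.90, SE 0.45), and their summed level was 64.6 to 70.6 CPM in KI against 224 to 335 CPM in controls. Of 8 neural progenitor markers 7 fell, led by Nes (-1.32), at 524 to 631 against 866 to 1127 CPM. Of 11 hindbrain markers 5 rose, led by Egr2 (1.20), at 401 to 416 against 332 to 348 CPM, while 3 of 10 forebrain markers fell, led by Hesx1 (-3.04) and Nkx2-1 (-2.90). Of 9 kidney and duct markers, the list of another tissue with Pax2 and Pax8, 4 rose, led by Osr1 (1.51) and Gata3 (1.08), at 140 to 150 CPM in KI against 87.4 to 97.3 CPM. Of 8 neural crest and roof plate markers 4 rose and 1 fell, at 327 to 400 against 260 to 277 CPM. Of 7 dopaminergic and floor plate markers tested 1 rose and 2 fell (Th, -1.83, and Lmx1a, -0.80). Of 5 thyroid markers 1 rose and 1 fell, of 8 ear and eye markers 3 fell, and of 7 streak and presomitic markers 1 rose and 3 fell. Of 7 limb and branchial arch markers 1 rose (Tbx5, 0.98) and 1 fell (Lhx8, -2.16). Among B cell markers only Ebf1 had enough reads for the test and gave -0.63 (SE 0.29, adjusted p = 0.115). The part of these tissues in the rise of Pax8, Pax5 and En1 was not tested.

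In embryoid bodies at day 4, En1 and En2 were higher in both KI clones than in flox, and Pax8 was lower. There is 1 flox library per day, so this is a comparison of 3 libraries without a replicate check. The limit used is a 2-fold distance from flox, in the same direction in clones 27 and 48, on log2(CPM + 0.5), for genes that reach 1 CPM in a library. It was passed by 3 members, beside 5.88% of 13843 genes, but En1 reaches 1 CPM only in KI and Pax8 only in flox, so nothing is read from that count. En1 read 14.4 and 14.2 CPM in the clones and 0.919 CPM in flox, 15.6-fold apart in mean CPM. En2 read 5.71 and 5.29 CPM against 2.35 CPM (2.34-fold), and Pax8 0.274 and 0.272 CPM against 1.43 CPM, which is 6 reads in each clone against 28. With 1 CPM added in place of 0.5, only En1 passed.

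Fgf8, highest of the 8 genes at this day, read 122 and 139 CPM in KI and 109 CPM in flox, under the 2-fold limit. Gbx2 read 8.18 and 9.37 CPM in KI against 14.7 CPM, also under it. Pax2 had 7 and 9 reads against 11, Pax5 2 and 0 reads against 0, and Wnt1 no read in any of the 3 libraries. Other tissues differed at day 4 as well. Primitive streak and presomitic markers, the list of another tissue with Fgf8, summed to 473 to 514 CPM in KI against 785 CPM in flox. Hindbrain markers summed to 42.4 to 44.3 against 178 CPM and naive pluripotency markers to 1362 to 1411 against 827 CPM. Of tissues with Pax8, kidney and duct markers summed to 118 to 129 against 193 CPM and thyroid markers to 5.44 to 6.29 against 9.40 CPM, lower in KI as Pax8 was, whereas ear and eye markers were higher (23.2 to 23.7 against 13.0 CPM). The limb ridge and branchial arch list summed to 67.1 to 71.5 against 48.4 CPM. It summed to 282 CPM in the ESC flox library, where 4 of its 7 genes had at most 3 reads. Its sum therefore does not mark that tissue in these cultures. Midbrain dopaminergic and floor markers were lower, at 13.9 to 14.6 against 35.1 CPM. The part of these tissues was not tested.

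ESCs gave no member past the limit, beside 7.68% of 12934 genes, and only En2 and Gbx2 reached 1 CPM there. Gbx2, part of the naive stem cell network, read 30.6 and 23.0 CPM in KI and 39.0 CPM in flox, and En2 6.49 and 6.01 CPM against 10.5 CPM. At day 10 the limit was passed by 4 members, beside 7.42% of 14589 genes, but En2, Fgf8 and Wnt1 reach 1 CPM only in flox, where they are high, so nothing is read from that count. En1 was higher (5.47 and 5.54 against 2.06 CPM), and En2 (0.460 and 0.417 against 2.37 CPM) and Fgf8 (0.972 and 0.916 against 3.03 CPM) were lower. Wnt1 had no read in either clone and 161 reads (6.25 CPM) in flox. It was at least 40.7-fold lower, with each KI library set to its floor of 3 reads. Marker lists differed at day 10 too. Naive pluripotency markers summed to 244 to 380 CPM in KI against 115 CPM in flox, and streak and presomitic markers to 23.4 to 25.6 against 9.97 CPM. Neural crest and roof plate markers, of another tissue with Wnt1, summed to 148 to 216 against 83.5 CPM, the opposite direction to Wnt1. The limb ridge and branchial arch list, whose sum does not mark that tissue in these cultures, was at 104 to 120 against 82.6 CPM. Their part was not tested.

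Averaged over the 3 stages and tested with day as a factor, none of 7 members was called by edgeR, beside 0.73% of 16567 genes, while 4 had an unadjusted p under 0.05, beside 16.4% of genes. They were En1 (log2 fold change 2.20, SE 0.55, adjusted p = 0.125), Pax8 (-3.02, adjusted p = 0.0560), Gbx2 (-0.62, adjusted p = 0.104) and Wnt1 (adjusted p = 0.112). DESeq2 called 3, beside 4.69% of genes: En1 (adjusted p = 0.00484), Pax8 (0.0124) and Gbx2 (0.0165). Pax8 and Wnt1 reach the 10-read minimum only in flox, where they are high (Pax8 at most 6 reads and Wnt1 0 in any KI library), so nothing is read from these counts. Without the flox library of day 4 edgeR called Fgf8 (-1.51, adjusted p = 0.0202). Of the 18 lists, 3 held a called gene in that fit: Six2 rose among kidney markers (0.80), and Hoxb3 (-2.52) and Nes (-0.59) fell.

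Between stages, the 6 KI libraries alone allowed a test. From ESC to day 4, Fgf8 rose from 0.253 to 131 CPM (log2 fold change 8.89, SE 0.17, adjusted p = 4.53e-07) and En1 from 0.571 to 14.3 CPM (4.54, SE 0.24), while Gbx2 fell (-1.70, SE 0.18). That is 3 of 4 members tested, beside 50.3% of genes. From day 4 to day 10 all 4 fell, beside 73.3% of genes: Fgf8 (-7.19), En2 (-3.72), Gbx2 (-3.69) and En1 (-1.46). En1, En2, Gbx2 and Fgf8 are those with enough reads, and the flox values, at 1 library per day, have no such test.

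**Figure D3:**
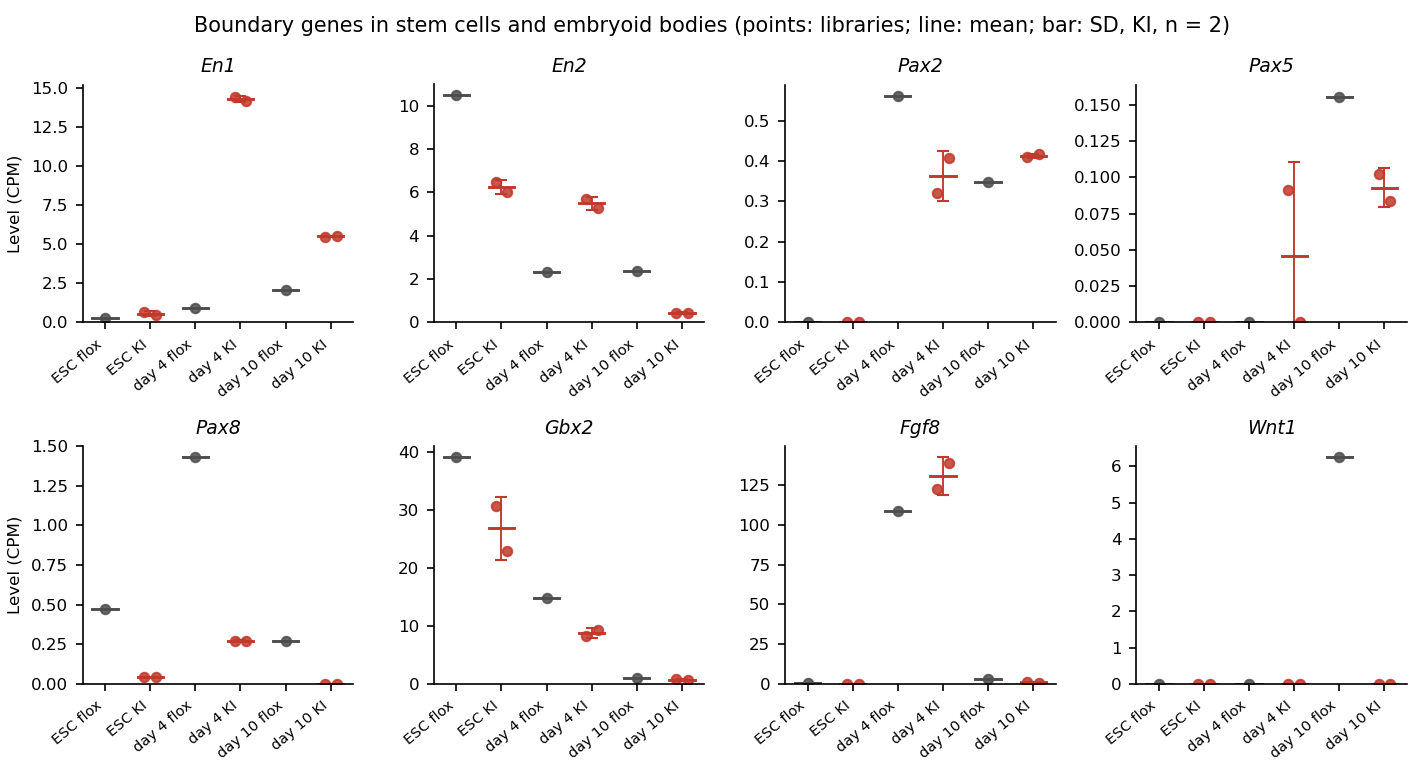
Levels (CPM) in ESCs and embryoid bodies at days 4 and 10, with 1 panel per gene, flox (1 library) in grey and KI clones 27 and 48 in red. Points are libraries, lines means and bars the SD of the 2 KI clones. At day 4 the KI points of En1 stand at 14.4 and 14.2 CPM and flox at 0.919 CPM, and Wnt1 is above 0 only in flox at day 10.

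In neural progenitors at day 8, En2, Wnt1 and Pax8 were higher in KI than in flox. These are 3 of 8 members, none lower, beside 19.5% of 16439 genes called at all and 6.3% called higher. The median log2 fold change was 0.10 over the members and 0.00 over all genes. The cultures had high Gbx2 and almost no Otx2, at 0.0818 ± 0.0501 CPM in flox and 0.0958 ± 0.0381 CPM in KI (SD, n = 2 each), the midbrain partner of the pair that meets at the boundary.

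En2 read 29.2 and 27.5 CPM in KI clones 27 and 48 and 2.43 and 2.38 CPM in flox. Both clones stood far above both flox libraries, and En2 was 11.8-fold higher in KI (log2 fold change 3.59, SE 0.21, adjusted p = 3.49e-07). Wnt1 read 136 and 160 CPM in KI and 66.3 and 67.3 CPM in flox, with both clones above both flox libraries (2.22-fold, log2 fold change 1.18, SE 0.15, adjusted p = 0.000141). Pax8 read 25.5 and 19.5 CPM against 15.0 and 15.6 CPM (1.47-fold, log2 fold change 0.59, SE 0.13, adjusted p = 0.00645). Clone 27 was the higher for Pax8, and the adjusted p was 0.0751 without it and 0.0624 without flox replicate 1. The 2 flox libraries of day 8 were the most alike of 23 replicate pairs (chi-square over its degrees of freedom 1.5, where the other pairs gave 2.76 to 54.8). They were counted as 2 samples, as the labels give them, and whether they came from separate cultures was not tested.

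En1 overlapped between genotypes at this day, at 1.70 and 0.941 CPM in KI and 1.28 and 1.43 CPM in flox (log2 fold change -0.02, SE 0.27, adjusted p = 0.981). Its sign turned to 0.02 with another scaling (relative log expression) and to 0.03 in DESeq2. Pax2 read 60.0 and 38.3 CPM in KI and 54.0 and 53.4 CPM in flox, with the flox libraries between the clones (log2 fold change -0.10, SE 0.17, adjusted p = 0.775). Without clone 27 Pax2 had an adjusted p of 0.0390 (log2 fold change -0.45). Pax5, at 4.64 and 3.77 against 3.66 and 3.67 CPM, gave 0.23 (SE 0.20, adjusted p = 0.513), and Gbx2, at 56.1 and 61.1 against 62.6 and 66.1 CPM, gave -0.10 (SE 0.09, adjusted p = 0.544). Fgf8 had 1 and 2 reads in KI and 3 and 9 in flox, a summed ratio of 3.92 with a 95% counting interval of 1.06 to 21.6 (edgeR adjusted p = 0.159, and 0.0233 with reads summed over its transcripts).

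By day 16, En2, En1, Pax8 and Fgf8 were called higher in KI and none lower. These 4 of 8 stand beside 46.9% of genes called at all and 27.1% called higher, with a median log2 fold change of 0.63 over the members and 0.09 over all genes. En2 read 9.46 and 14.9 CPM in KI and 2.62 and 2.82 CPM in flox (4.47-fold, log2 fold change 2.37, SE 0.20, adjusted p = 2.84e-06). En1 read 12.6 and 9.20 CPM against 6.70 and 7.33 CPM (1.55-fold, log2 fold change 0.84, SE 0.20, adjusted p = 0.00461). These folds are ratios of mean unscaled CPM, whereas log2 fold changes follow scaling of the libraries to each other. At day 16 the scaled log2 value of each member lies above that of its CPM ratio. Both engrailed genes were separate between the genotypes, and the clones themselves differed, with clone 48 higher for En2 and clone 27 for En1.

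Pax8, at 16.9 and 16.8 CPM in KI and 12.6 and 11.1 CPM in flox, was 1.42-fold higher (log2 fold change 0.71, SE 0.13, adjusted p = 0.000948). The call for Fgf8 rests on very few reads, 12 and 16 in KI and 7 and 2 in flox (log2 fold change 1.55, SE 0.55, adjusted p = 0.0374). DESeq2 gave Fgf8 an adjusted p of 0.246. The edgeR value was 0.179 without flox replicate 2, 0.0618 without clone 27, 0.150 without clone 48 and 0.0514 in a fit of the day 16 libraries alone.

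Pax2, most abundant of the 8 in CPM at day 16, read 74.7 and 82.3 CPM in KI and 107 and 119 CPM in flox, without overlap. It was not called with the libraries scaled to each other (log2 fold change -0.32, SE 0.16, adjusted p = 0.130), but was in a fit of these 4 libraries alone (adjusted p = 0.0145). Wnt1 had fallen to 0.925 and 1.19 CPM in KI and 1.09 and 2.00 CPM in flox (log2 fold change -0.29, SE 0.27, adjusted p = 0.399). Without flox replicate 1 Wnt1 was called lower (-0.71, adjusted p = 0.0317). Gbx2 (-0.04, SE 0.10, adjusted p = 0.767) and Pax5 (0.55, SE 0.31, adjusted p = 0.161) were not called. In unscaled CPM the Gbx2 groups were separate with KI lower, at 21.1 and 20.5 against 23.6 and 25.7 CPM.

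**Figure D4:**
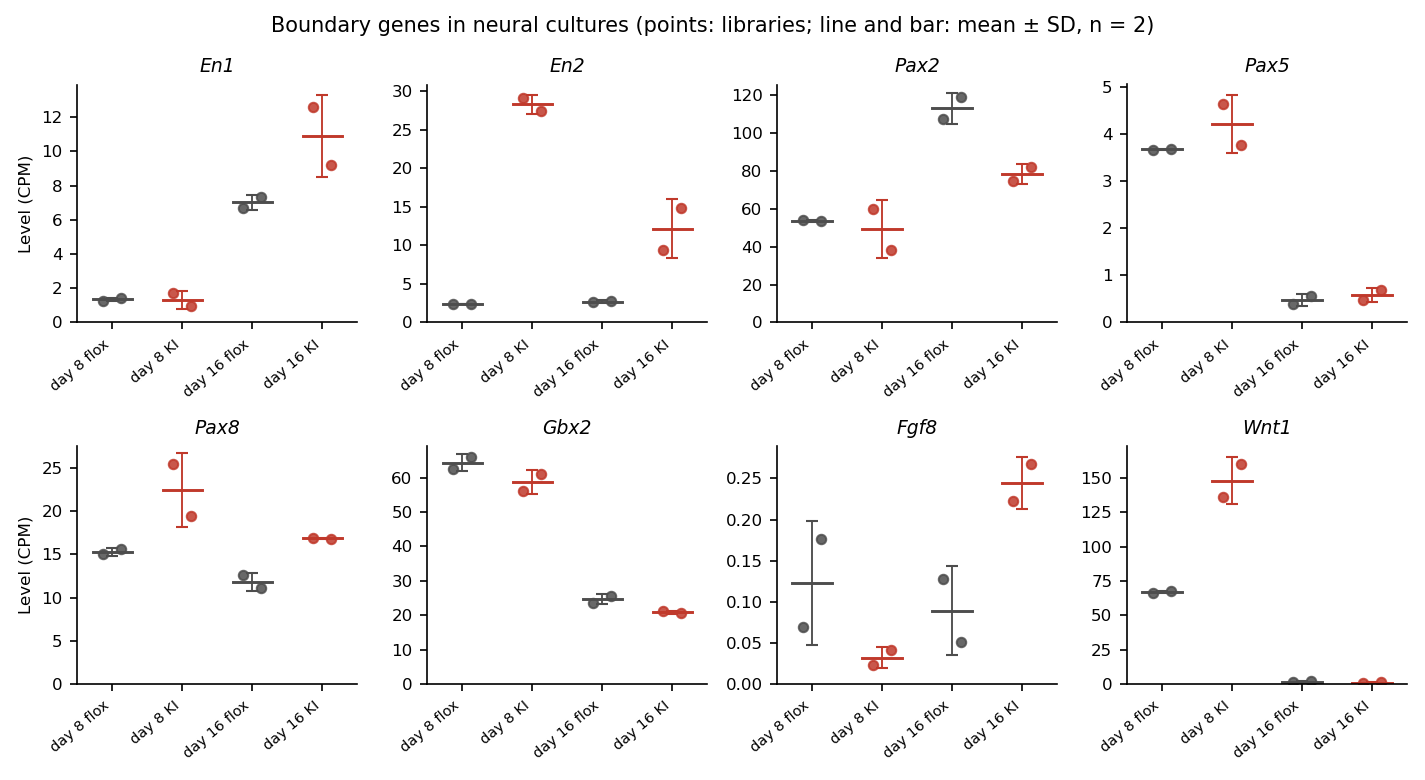
Levels (CPM) in neural cultures at days 8 and 16, with 1 panel per gene, flox in grey and KI in red. Points are libraries, lines and bars the mean ± SD (n = 2). En2 stands at 29.2 and 27.5 CPM in the day 8 KI libraries and at most at 2.82 CPM in the 4 flox libraries, and Wnt1 is at most at 2.00 CPM in day 16 libraries.

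Between the days, the shares of members called were near those of all genes in both genotypes. In flox 6 of 8 were called, beside 77.1% of genes. En1 (log2 fold change 2.40, SE 0.24) and Pax2 (1.11) rose, and Wnt1 (-5.45, SE 0.20), Pax5 (-2.95), Gbx2 (-1.35) and Pax8 (-0.34) fell. Pax8 was not called there by DESeq2 (adjusted p = 0.0503) or without flox replicates 1 or 2 of day 8 (0.0770 and 0.155) or 2 of day 16 (0.161). In KI 7 were called, beside 79.9% of genes. Fgf8, among the 7, was tested only through the day 16 KI libraries, so nothing is read from this count. En1 (3.26), Fgf8 (3.03) and Pax2 (0.88) rose, and Wnt1 (-6.92, SE 0.21), Pax5 (-2.63), Gbx2 (-1.29) and En2 (-1.01) fell. In KI, Pax8 gave -0.21 (adjusted p = 0.145) and was called without clone 48 of day 8 (0.0186).

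The genotype effect differed between the days for 3 members, beside 33.2% of genes. It was smaller at day 16 for En2 (-1.21, SE 0.29, adjusted p = 0.00677) and moved downward for Wnt1 (-1.47, SE 0.30, adjusted p = 0.00326), while Fgf8 gave 3.40 (SE 1.00, adjusted p = 0.0211) on its few reads. Without flox replicate 2 of day 16, En2 had an adjusted p of 0.0503 and Fgf8 of 0.0586, which left Wnt1 as the only member called. Fgf8 was also lost without flox replicate 2 of day 8 (0.214), clones 27 or 48 of day 8 (0.0810 and 0.0591) or clone 48 of day 16 (0.0586). En1 gave 0.85 (SE 0.34, adjusted p = 0.0710). With clone or replicate number followed across days as a replicate block its adjusted p was 0.0114, which made 4 members called. En1 also passed without clone 27 of day 8 (0.0180), without clone 48 of day 16 (0.0404) and with no filter on low counts (0.0425). Pax2 (-0.22, adjusted p = 0.500) passed without clone 48 of day 8 (-0.51, adjusted p = 0.0373).

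Around the members, 3 of 13 tested boundary partners rose at day 8 and 4 fell (median -0.01). The Hes gene Hes3 of the boundary rose (1.63, SE 0.21), as did the zinc finger gene Sp8 (1.44, SE 0.14), and Lmx1b fell (-2.02, SE 0.21). Of 7 FGF ligands and receptors 2 rose, Fgf15 (2.11, SE 0.19) and Fgfr2 (0.76), and Fgf18 fell (-0.58), and of 10 FGF response genes 3 rose and 2 fell. Of the 5 other WNT ligands Wnt10b (1.87) and Wnt3a (1.37) rose and Wnt4 (-1.27) and Wnt7b (-1.14) fell, and of 10 WNT response genes 1 rose (Sp5, 0.68) and 5 fell, led by Lgr5 (-1.51). At day 16 all 10 WNT response genes fell, led by Sp5 (-4.34), Notum (-3.56) and Tcf7 (-2.65), with a median of -2.20 against 0.09 over all genes. The 5 WNT ligands gave 1 rise and 4 falls, led by Wnt3a (-3.98), and 7 of 10 FGF response genes fell. Of the 7 FGF ligands and receptors 1 rose and 3 fell, led by Fgf15 (-2.93). Of the 13 partners 2 rose, led by Sp8 (2.48), and 3 fell, led by Hes3 (-1.83) and Pax3 (-1.81).

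Cell type markers also differed between the genotypes. Of 10 neuron markers 9 fell in KI at day 8, at 1314 to 1510 CPM summed against 2153 to 2154, and all 10 rose at day 16, at 6985 to 7517 against 4680 to 4974 CPM. Of 8 neural progenitor markers 3 rose and 1 fell at day 8 and 3 rose and 2 fell at day 16. Of 11 hindbrain markers 3 rose and 2 fell at day 8, with sums of 1126 to 1260 CPM in KI and 1369 to 1371 CPM in flox. At day 16, 3 rose and 3 fell, with sums of 471 to 482 against 617 to 621 CPM. Of 7 forebrain markers tested at day 8, 1 rose and 3 fell, with sums of 19.0 to 23.1 against 30.6 to 31.04 CPM and Fezf1 at 0 in both genotypes. At day 16, 2 of them fell, with sums of 5.06 to 6.00 against 17.6 to 18.4 CPM. Of 7 dopaminergic and floor plate markers 1 rose and 1 fell at day 8, and 2 rose and 4 fell at day 16, at 13.8 to 14.8 against 20.2 to 23.2 CPM. Of 9 kidney and duct markers 2 rose and 5 fell at day 8 (204 to 241 against 357 to 358 CPM), while Pax8 was higher, and 5 fell at day 16. Neural crest and roof plate markers, of another tissue with Wnt1, gave 2 rises and 2 falls at day 8, at 171 to 182 against 154 to 157 CPM. The part of these cells in the members' values was not tested.

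**Figure D5:**
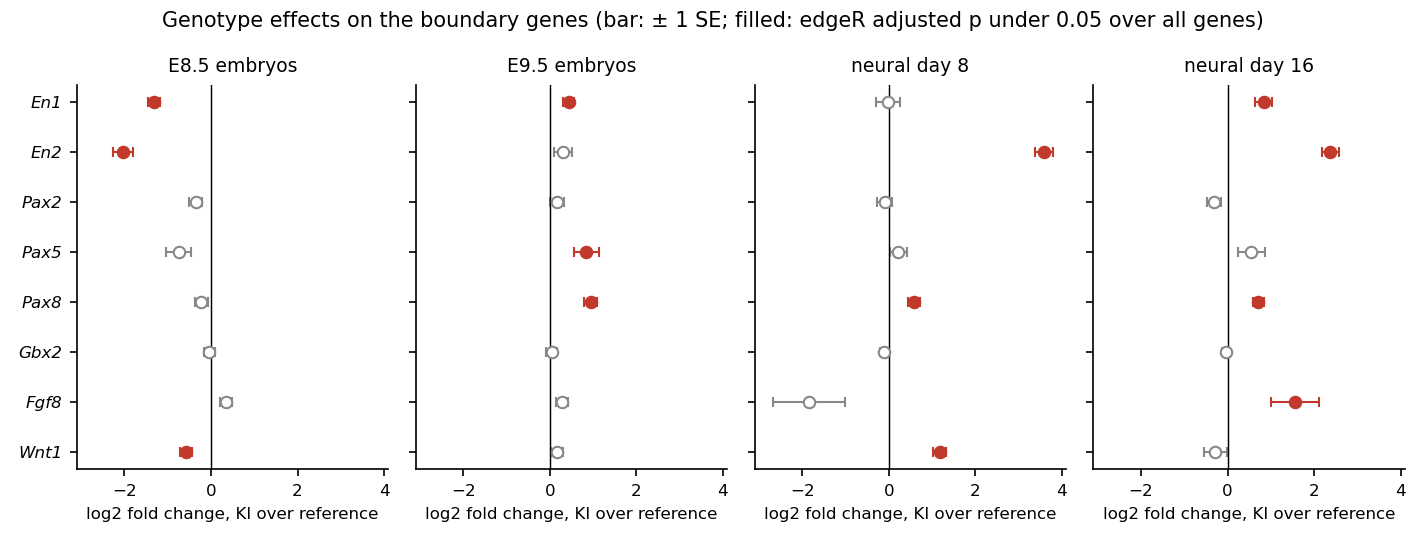
Log2 fold changes (KI over control or flox, horizontal axis) of the 8 genes in embryos and neural cultures. Bars are ± 1 SE, and filled points passed an edgeR adjusted p under 0.05 over all genes tested. Called points lie left of 0 at E8.5 and right of 0 in the other 3 comparisons, and the Gbx2 points are all open, from -0.10 to 0.04.

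In extraembryonic cultures Pax5, Pax8 and Wnt1 had at most 6 reads per library, and the other 5 of 8 had enough reads for a test. In endoderm at day 5, Fgf8 was lower in KI, at 0 and 2 reads against 130 and 114 (6.30 and 5.82 CPM in flox). The ratio of summed reads was 125, with a 95% counting interval of 34.2 to 1036 (edgeR adjusted p = 0.00166). It was the 1 member called of 5 tested, beside 35.5% of 15532 genes. En1, at 4.88 and 4.80 CPM in KI and 5.09 and 7.10 CPM in flox, gave -0.36 (SE 0.30, adjusted p = 0.377). In trophectoderm at day 6, 2 of 5 were called, beside 50.9% of genes, each on values of a few CPM. En1 was higher (1.38 and 2.25 against 0.987 and 0.921 CPM, log2 fold change 0.95, SE 0.36, adjusted p = 0.0376) and Gbx2 lower (3.42 and 4.17 against 7.49 and 5.80 CPM, -0.78, SE 0.30, adjusted p = 0.0447).

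Markers of other cells moved in these cultures as well. In trophectoderm 7 of 9 naive pluripotency markers, the list of another cell type with Gbx2, fell in KI, at 420 to 538 CPM summed against 925 to 944 CPM. Of 7 neural progenitor markers tested 1 rose and 3 fell, at 63.6 to 85.9 against 330 to 347 CPM, and 4 of 7 streak and presomitic markers rose, at 60.5 to 117 against 36.0 to 36.8 CPM. In endoderm 2 of 7 streak and presomitic markers fell beside Fgf8, at 29.1 to 29.9 against 36.2 to 36.3 CPM, and 3 of 9 naive markers rose and 1 fell. Their part in the members' values was not tested.

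Neither trophectoderm call was stable. DESeq2 called no member, beside 46.3% of genes, and gave En1 an adjusted p of 0.0587 and Gbx2 0.0792. Over 9 alternative fits, those with 1 library left out by edgeR among them, the log2 fold change ran from 0.56 to 1.24 for En1. For Gbx2 it ran from -0.98 to -0.61. En1 lost its call in 5 of the 9, among them the fit of only the libraries compared. Gbx2 lost its call in 6, among them the fit with reads summed over transcripts. Fgf8 there read 9.16 CPM in clone 27 and 23.4 CPM in clone 48, on either side of flox at 16.5 and 17.4 CPM (log2 fold change -0.03, SE 0.39, adjusted p = 0.961). Without clone 48 Fgf8 was called lower (-0.86, adjusted p = 0.00705).

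Across the 18 group means some members ran together, as a description over groups that share libraries, depth and culture protocols. On log2(CPM + 0.5), Pearson's r was 0.933 for Pax5 and Wnt1, 0.922 for Pax2 and Pax8 and 0.867 for Pax5 and Pax8. En1 and En2 reached 0.389, and Fgf8 and Pax2 -0.282. Among 14244 genes that reach 5 CPM in a group, the pattern most like that of Wnt1 was that of Pax7 (r = 0.957), then Msx3 (0.953). For Fgf8 it was Otx2 (0.867), for En1 Gatm (0.832), for En2 Zfp454 (0.870), for Pax2 Brsk2 (0.975), for Pax5 Crnde (0.970), for Pax8 Cfap410 (0.968) and for Gbx2 Dph7 (0.935).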

How the data were processed

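RNA was sequenced from stem cells, cultures and whole embryos. The molecule is labelled total RNA for 20 libraries (embryos, trophectoderm, endoderm) and poly(A) RNA for 17, while the protocols given for all 37 describe poly(A) enrichment and NEBNext kits. The submitters' processing notes name the mouse build mm9 and the tools bcl2fastq, Bowtie2, STAR and SICER 1.1, without roles. Which program counted reads, on which annotation release and whether by strand is not given in the sources used here. Each deposited table holds 29082 transcripts with whole-number read counts and RPKM values computed by the authors, per the file headers. Deposited RPKM equals count over 1 length per transcript and 1 denominator per library (largest relative deviation 5.4e-12). Of 100 samples in the series, 37 RNA libraries in 18 groups were used and 63 were not analysed here.

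Accessions were matched to symbols in RefSeq tables (28436 of 29082, the other 646 holding 1.25% to 2.13% of reads), and the transcript with the most reads stood for each gene. CPM is count over the gene-level total, unscaled. Counts were tested with edgeR 4.0.16 in R 4.3.3 (filterByExpr with a minimum of 10 reads, TMM scaling, robust quasi-likelihood test, Benjamini-Hochberg over all genes of a comparison), with 1 fit each for the 12 embryo, 8 neural, 8 extraembryonic and 9 ESC and embryoid body libraries and for the 6 KI libraries of that course. Single days of that course, with 1 flox library, have no test. The members and gene lists were chosen with earlier results of these data known. Named beyond the members are up to 3 called genes per list, direction and comparison with the biggest change, and the genes most like each member. Genes given to show that a label or a neighbour holds (Kmt2c, Kmt2d, cell type markers, Otx2 where not called) were named after their values were seen. Some list genes are not reported here by name.

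Title numbers pair E8.5 embryos: deviations from group means correlated at 0.265 to 0.546 within the 3 same-numbered pairs and at -0.436 to 0.0451 between others. At E9.5 same-numbered correlations ran from -0.00471 to 0.256. KI clones of the neural cultures are the same at both days by their titles (0.312), whereas flox cultures share only a replicate number (0.162). Alternatives were another scaling (RLE), no filter, reads summed over transcripts, DESeq2 1.42.0, only the libraries compared, a replicate block, each library left out, and pseudocounts of 0.1 and 1 CPM for the untested days.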

Additional observations from a re-analysis of the deposited data

Results flagged for a closer look

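Each of these values is a difference between 2 genotype effects that an interaction term of edgeR called, and no explanation was tested. The effect of KI moved upward from E8.5 to E9.5 by 2.33 on the log2 scale for En2, 1.76 for En1, 1.59 for Pax5, 1.17 for Pax8 and 0.74 for Wnt1. At E8.5 the KI embryos were the lower group for all 5 genes, and at E9.5 they had the higher mean for all 5, with Wnt1 overlapping between the groups. Between neural days 8 and 16 the effect of KI moved by -1.21 for En2, which stayed higher in KI at both days. For Wnt1 it moved by -1.47, from 2.22-fold higher in KI at day 8 to values that overlapped at day 16. For Fgf8 it moved by 3.40, on 1 to 16 reads per library.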

How the results depend on the processing

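Of the recomputed counts of called members, 166 stayed within 1.5 times the count reported and 14 did not. Of the recomputed member values, 1097 kept their direction and side of the threshold, 48 fell short of it, 21 passed it and 23 changed sign, all 23 on members that were not called. Leaving out 1 library at a time gave 1 to 3 members called at E9.5 (1 without KI replicate 3), 3 to 5 for the stage difference (3 without E8.5 KI replicate 3 or E9.5 KI replicate 2), 1 to 3 for the neural day difference, 0 to 1 in trophectoderm and 0 to 1 in the embryoid body course. In trophectoderm DESeq2 called 0 (46.3% of genes), and 1 was called with reads summed over transcripts and 1 with only the libraries compared, against 2 reported. In the embryoid body course DESeq2 called 3 against 0, beside 4.69% of genes, and 1 of the 3, Pax8, reaches 10 reads only in flox. At embryoid body day 4, 1 member passed with a pseudocount of 1 CPM against 3. The causes were not tested.

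Signs changed as follows, given as the range of log2 fold changes with 1 library left out. Gbx2 ran from -0.13 to 0.022 at E8.5, -0.14 to 0.14 at E9.5, -0.10 to 0.17 for the stage difference, -0.10 to 0.034 at neural day 16 and -0.0045 to 0.13 for the day difference. Fgf8 ran from -0.18 to 0.063 for the stage difference, -1.22 to 0.47 between days in flox neural cultures, -0.86 to 0.47 in trophectoderm and -1.51 to 0.16 in the embryoid body course, and En2 there from -1.54 to 0.044. At neural day 8 En1 ran from -0.48 to 0.35 (0.022 with RLE scaling, 0.026 in DESeq2) and Pax2 from -0.45 to 0.19. Wnt1 ran from -0.71 to 0.17 at neural day 16, and for the day difference Pax2 ran from -0.51 to 0.13 and Pax8 from -0.053 to 0.32.

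The replicate block moved the call of En1 in the neural day difference (0.86, adjusted p = 0.0114) and no other member's. It left 3 members called at E8.5, 3 at E9.5 and 5 for the stage difference. No block could be fitted from E8.5 to E9.5 within a genotype or between genotypes at a single neural day. Values of Fgf8 in neural cultures rest on at most 16 reads per library.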
